A study of Mus musculus with 14 samples.

Results

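A set of 9 genes that mark plasmacytoid dendritic cells was followed through the spleens of mice with psoriasis-like skin inflammation. They are Siglech, Tcf4, Ccr9, Ly6d, Pacsin1, Runx2, Cox6a2, Klk1 and Cd300c, taken from the count table by their gene symbols. They make up 9 of its 22116 named genes, and each of the 9 symbols was found. All 14 mice were wild-type BALB/c females aged 6 to 8 weeks, and each gave 1 library of poly(A) RNA from whole spleen. The control mice (n = 3) received petrolatum, the vehicle, on the back and the ears, although the series' design text calls them untreated. The imiquimod-dorsal mice (n = 4) had a 5% imiquimod cream spread on the back once a day for 5 days. The imiquimod-ear mice (n = 4) had the same cream on the ear for the same 5 days. The IL-23-ear mice (n = 3) were given recombinant mouse IL-23 into the ear skin at 1 µg per ear, in 4 injections over 7 days. The vehicle was applied to both sites of the controls, the days of treatment differ between the IL-23 and imiquimod groups, and no group that was injected with vehicle was analysed here. A library is named below by its group and the replicate number that the labels give it.

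Plasmacytoid dendritic cells are rare dendritic cells, shaped like plasma cells, that carry Toll-like receptors 7 and 9 in their endosomes and answer viral nucleic acid with large amounts of type I interferon. Imiquimod is a small-molecule agonist of Toll-like receptor 7, and in mice these cells are among its main targets. Their identity depends on the E protein Tcf4 (also called E2-2), which binds the E-box motif in the regulatory DNA of its target genes. IL-23 is a cytokine that sustains type 17 T cells, and it does not act through Toll-like receptors.

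Because Tcf4 acts through E-boxes, the DNA just upstream of a member's start site is shown first. The RefSeq promoter table of build GRCm38.p6 held 6 of the 9 members: Siglech, Ccr9, Pacsin1, Runx2, Klk1 and Cd300c. The 250 bases before the start are printed for the members whose levels the results below turn on, 5′ to 3′ on the gene's strand, with every E-box (CANNTG, which reads the same on both strands) in capitals. They are Siglech at chr7:55767934-55768183, Ccr9 at chr9:123766961-123767210, Klk1 at chr7:44225110-44225359 and Pacsin1 at chr17:27684989-27685238, all on the plus strand. The reference strain is C57BL/6J, not the BALB/c of these mice.
Siglech: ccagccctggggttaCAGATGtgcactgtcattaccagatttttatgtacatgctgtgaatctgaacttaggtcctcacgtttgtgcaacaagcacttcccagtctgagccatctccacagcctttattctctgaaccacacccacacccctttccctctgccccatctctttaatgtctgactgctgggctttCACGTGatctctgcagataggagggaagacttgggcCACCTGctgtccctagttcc
Ccr9: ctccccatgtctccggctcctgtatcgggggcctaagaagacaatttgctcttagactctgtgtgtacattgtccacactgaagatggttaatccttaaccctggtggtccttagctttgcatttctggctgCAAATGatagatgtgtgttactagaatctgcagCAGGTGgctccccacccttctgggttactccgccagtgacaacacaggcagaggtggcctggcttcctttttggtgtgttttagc
Klk1: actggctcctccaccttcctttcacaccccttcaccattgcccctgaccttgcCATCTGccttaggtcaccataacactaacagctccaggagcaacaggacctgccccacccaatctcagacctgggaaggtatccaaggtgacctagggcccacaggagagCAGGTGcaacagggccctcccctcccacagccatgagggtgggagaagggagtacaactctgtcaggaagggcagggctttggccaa
Pacsin1: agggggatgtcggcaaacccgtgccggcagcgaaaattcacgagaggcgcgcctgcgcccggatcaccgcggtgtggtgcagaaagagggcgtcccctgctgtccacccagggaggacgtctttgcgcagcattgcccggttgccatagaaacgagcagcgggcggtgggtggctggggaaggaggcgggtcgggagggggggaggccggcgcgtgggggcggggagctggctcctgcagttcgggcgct
The Siglech sequence held 3 E-boxes: one with the letters CAGATG begins 235 bases before the start, CACGTG begins at 56 bases, and CACCTG begins at 20 bases. Ccr9 held CAAATG at 118 and CAGGTG at 85 bases, and Klk1 held CATCTG at 197 and CAGGTG at 87 bases. The Pacsin1 sequence, in which 70.4% of bases are G or C, held no E-box. Over the 6 members found, 5 had an E-box, while 66.2% of all 32851 promoters of the same length did. The form CAGGTG, which E proteins bind and which is itself an E-box, reads as CACCTG on the other strand. It was in 4 of the 6, namely Siglech, Ccr9, Klk1 and Cd300c, and in 17.2% of all promoters. The Runx motif TGTGGT was in 4 of the 6, namely Siglech, Pacsin1, Runx2 and Cd300c, and in 14.0% of all. The interferon response motif GAAANNGAA was in Cd300c alone of the 6 and in 7.1% of all, and the Spi1 and SpiB motif GAGGAAGT was in 0 of the 6 and in 2.4% of all. Both strands were searched, so ACCACA counted as the Runx motif. These are matches of letters in a short window of the reference genome. Binding was not measured, and no test was made of these counts.

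The libraries held 28354674 to 40289411 counts over named genes. Levels are given as CPM, the count relative to the size of the library, scaled by TMM, a factor that corrects for differences in library composition, and 3 counts correspond to 0.0745 to 0.1058 CPM. Differences are log2 fold changes with their standard errors (SE) from edgeR's quasi-likelihood test on all 15159 genes with enough counts, of which 8 members are part, and a gene is called when its adjusted p lies under 0.05. Cd300c was too low to enter the test. Statements that groups do or do not overlap describe single genes. The share of all tested genes without such overlap was not counted. A pair of libraries held RNA of another tissue. Imiquimod-dorsal 4 held 533 CPM summed over 15 exocrine pancreas genes, against 7.39 to 16.2 CPM in the other 13 libraries. Imiquimod-ear 4 held 1379 CPM over 10 skeletal muscle genes, against 7.01 to 39.9 CPM in the other 13, of which IL-23-ear 2 was the highest. Values of Klk1 and Cox6a2, which those tissues also make, are given with and without them. Genes that mark spleen, 7 with Cr2, Cd79a and Spic among them, summed to 982 CPM or more in every library. The sum was 982 to 1199 CPM in the imiquimod-dorsal libraries and 1692 to 1710 CPM in the controls. It was 1198 to 1535 CPM in the imiquimod-ear and 1694 to 1859 CPM in the IL-23-ear libraries. Much of it came from Cd79a and Cr2, also B cell genes, at 619 and 180 CPM in imiquimod-dorsal 3.

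The members' levels were also compared per kilobase of merged exon, the joined length of all annotated exons of a gene. That length was 28277 bases for Tcf4, 10583 for Ccr9 and 4894 for Siglech, so the order below also depends on the annotation. In the controls Ly6d was the highest at 72.2 ± 12.3 CPM per kilobase (SD, n = 3). Klk1 followed at 6.03 ± 2.05. Tcf4 at 3.80 ± 0.25, Pacsin1 at 3.75 ± 0.33, Cox6a2 at 3.71 ± 0.92 and Siglech at 3.08 ± 0.10 lay close to each other. Within 1 SD, Klk1 overlapped Tcf4, and Siglech overlapped Cox6a2 but neither Tcf4 nor Pacsin1. Ccr9 at 1.47 ± 0.20 and Runx2 at 1.33 ± 0.06 overlapped, and Cd300c at 0.21 ± 0.03 was the lowest. Most of the members are not restricted to plasmacytoid dendritic cells: Ly6d and Tcf4 are also made by B cells, Ccr9 by T cells, Klk1 by the pancreas and Cox6a2 by muscle. Siglech is commonly used as the most restricted of them, but which spleen cells made it was not measured here. In RNA of a whole organ, fewer cells of a type and less RNA per cell cannot be told apart.

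**Figure D1:**
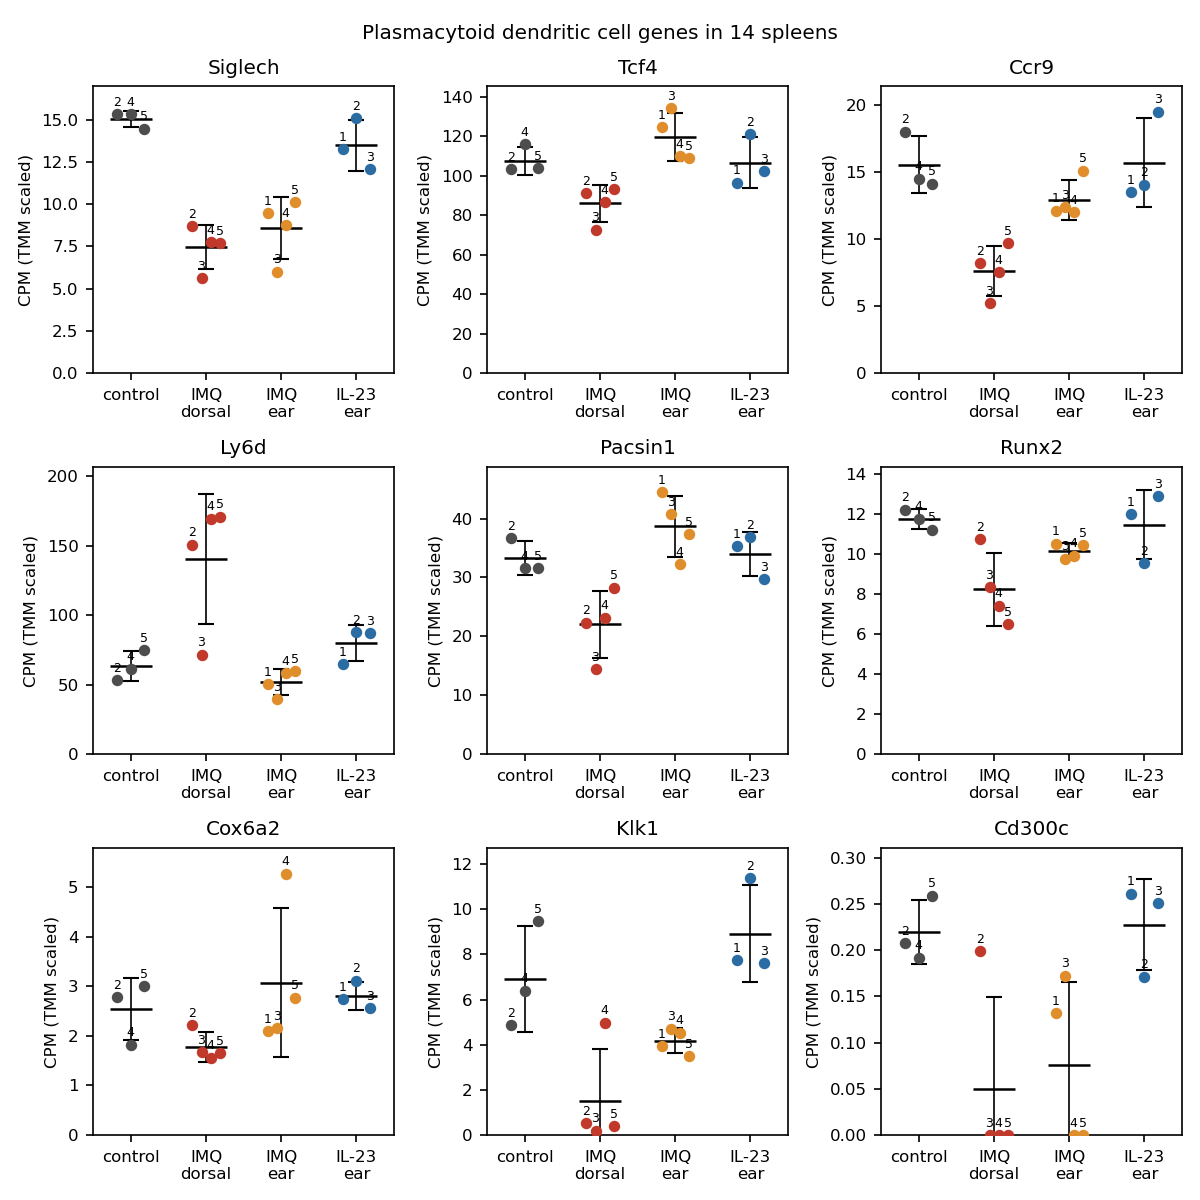
Level of each of the 9 genes in every library, in TMM-scaled CPM, by group (IMQ, imiquimod); points carry the replicate number, horizontal lines are group means and bars 1 SD. Siglech lies at 14.5 CPM or more in the controls and at 10.1 CPM or less in all 8 imiquimod libraries, whereas Tcf4, Ccr9 and Pacsin1 lie lowest in the imiquimod-dorsal libraries.

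The plainest pattern was that of Siglech, which fell in both imiquimod groups. Ccr9, Tcf4 and Pacsin1 fell after dorsal imiquimod and were higher after ear than after dorsal imiquimod. The members are described by role, first the surface proteins, then the transcription factors, then the rest.

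Siglech encodes a surface receptor of the family of sialic acid-binding lectins, and it dampens the interferon response of plasmacytoid dendritic cells. The gene lies on chromosome 7 at 55417926 to 55429195 of GRCm39. It stood at 15.4, 15.3 and 14.5 CPM in the controls. The imiquimod-dorsal libraries held 8.71, 5.64, 7.77 and 7.69 CPM, and the imiquimod-ear libraries 9.48, 6.01, 8.77 and 10.1 CPM. The IL-23-ear libraries held 13.3, 15.1 and 12.1 CPM. All 8 imiquimod libraries were below all 6 others, and the IL-23-ear libraries overlapped the controls. Siglech fell after dorsal imiquimod by 1.01 ± 0.17 on the log2 scale, a 2.02-fold difference (adjusted p = 0.0002009). It fell after ear imiquimod by 0.81 ± 0.17, a 1.75-fold difference (adjusted p = 0.006794). The imiquimod groups overlapped each other, and ear against dorsal was 0.21 ± 0.16 (adjusted p = 0.3124); without imiquimod-ear 3, the lowest of its group, it was 0.36 (adjusted p = 0.04328). Against control both falls were called in each of 17 alternatives of processing or of left-out libraries, with adjusted p up to 0.001102 for the dorsal and up to 0.04657 for the ear group.

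Ccr9, the receptor for the gut and thymus chemokine CCL25 (chromosome 9, 123507181 to 123613395, GRCm39), directs plasmacytoid dendritic cells and T cells to those organs. Its controls were at 18.0, 14.5 and 14.1 CPM. The imiquimod-dorsal libraries held 8.17, 5.19, 7.51 and 9.65 CPM, all below every other library. The imiquimod-ear libraries held 12.1, 12.4, 12.0 and 15.1 CPM, and the IL-23-ear libraries 13.5, 14.0 and 19.5 CPM, so that both groups overlapped the controls. Ccr9 fell after dorsal imiquimod by 1.02 ± 0.19 (adjusted p = 0.0003704), while the ear group differed by -0.27 ± 0.19 (adjusted p = 0.3248). The difference between the imiquimod groups was itself called, with the ear group higher by 0.75 ± 0.18 (adjusted p = 0.003406). Without imiquimod-ear 5, the highest of its group, the ear group differed from control by -0.39 ± 0.20 (adjusted p = 0.1415) and was higher than the dorsal group by 0.68 ± 0.18 (adjusted p = 0.009393). T cell genes moved with this result: 14 of 14 fell after dorsal imiquimod, where 27.6% of all tested genes did, with a median of -2.46. Their summed level was 195 to 264 CPM in the imiquimod-dorsal libraries and 953 to 1388 CPM in the controls. It was 675 to 1257 CPM in the imiquimod-ear and 1438 to 1656 CPM in the IL-23-ear libraries. The part of T cells in the Ccr9 result was not tested. Ccr9 shares 434 exon bases with Slc6a20a on the opposite strand, and in these non-stranded libraries the reads of such a stretch cannot be told apart.

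Ly6d, a small membrane-anchored protein found on B cells and on the lymphoid progenitors that give rise to them and to plasmacytoid dendritic cells, was the one member that rose (chromosome 15, 74633902 to 74635597, GRCm39). The controls were at 53.4, 61.5 and 74.6 CPM. The imiquimod-dorsal libraries 2, 4 and 5 held 151, 169 and 171 CPM, and imiquimod-dorsal 3 held 71.7 CPM, within the range of the controls. The imiquimod-ear libraries held 50.1, 39.6, 58.2 and 59.8 CPM and the IL-23-ear libraries 64.8, 87.6 and 86.8 CPM. Ly6d rose after dorsal imiquimod by 1.15 ± 0.27 (adjusted p = 0.002505). It lay lower in the ear than in the dorsal imiquimod group, at -1.44 ± 0.24 (adjusted p = 0.0004697), with no overlap between these groups. Of 15 B cell genes, 1 rose and 3 fell after dorsal imiquimod, with a median of -0.13. Of all tested genes, 32.3% rose and 27.6% fell there. The summed level of the B cell genes was 4354 to 5304 CPM in the imiquimod-dorsal libraries against 5670 to 5890 CPM in the controls. The part of B cells in the Ly6d result was not tested.

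Cd300c, an activating receptor of the immunoglobulin superfamily on myeloid cells (chromosome 11, 114846942 to 114859983, GRCm39), was near the limit of what these libraries can show. It had 8, 6 and 10 counts in the controls and 10, 6 and 9 in the IL-23-ear libraries. The imiquimod-dorsal libraries had 7, 0, 0 and 0 counts and the imiquimod-ear libraries 5, 6, 0 and 0. All 5 libraries without a count were from imiquimod-treated mice, and each of those zeros allows up to 3 counts. When all genes were fitted without a filter, the dorsal difference was -2.06 ± 1.22 (adjusted p = 0.1812) and the ear difference -1.54 ± 1.16 (adjusted p = 0.4022), so no change was detectable at this depth.

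Tcf4, the E protein that specifies and maintains plasmacytoid dendritic cells (chromosome 18, 69476427 to 69822150, GRCm39), moved less. It was at 103, 116 and 104 CPM in the controls and at 91.1, 72.6, 86.7 and 93.3 CPM in the imiquimod-dorsal libraries, which did not overlap them. The imiquimod-ear libraries held 125, 134, 110 and 109 CPM, and the IL-23-ear libraries 96.4, 121 and 102 CPM. Tcf4 fell after dorsal imiquimod by 0.32 ± 0.11 (adjusted p = 0.0168). The ear group differed from control by 0.15 ± 0.11 (adjusted p = 0.3334) and was higher than the dorsal group by 0.47 ± 0.10 (adjusted p = 0.001446), with every ear library above every dorsal one.

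Runx2, a transcription factor known from bone formation that plasmacytoid dendritic cells need to leave the bone marrow (chromosome 17, 44806874 to 45125684, GRCm39), had 12.2, 11.8 and 11.2 CPM in the controls. The imiquimod-dorsal libraries held 10.7, 8.36, 7.42 and 6.49 CPM, all below the controls. The imiquimod-ear libraries lay within a narrow range, at 10.5, 9.77, 9.92 and 10.4 CPM, also below all 3 controls. The IL-23-ear libraries held 12.0, 9.53 and 12.9 CPM. Runx2 fell after dorsal imiquimod by 0.51 ± 0.15 (adjusted p = 0.01063). The ear difference of -0.21 ± 0.15 did not pass (adjusted p = 0.3511), nor did ear against dorsal at 0.30 ± 0.14 (adjusted p = 0.09732; 0.45 and 0.0105 without imiquimod-dorsal 2). Runx2 shares 362 exon bases with Supt3 on the opposite strand.

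Pacsin1, a membrane-bending adaptor of neurons that these cells use in their interferon response to Toll-like receptor ligands, lies on the same chromosome (27873758 to 27930457, GRCm39). Its controls were at 36.6, 31.6 and 31.6 CPM. The imiquimod-dorsal libraries held 22.3, 14.4, 23.2 and 28.3 CPM, below every other library. The imiquimod-ear libraries held 44.5, 40.7, 32.2 and 37.3 CPM, and the IL-23-ear libraries 35.3, 36.8 and 29.7 CPM. Pacsin1 fell after dorsal imiquimod by 0.59 ± 0.18 (adjusted p = 0.009997) and was higher in the ear than in the dorsal group by 0.81 ± 0.16 (adjusted p = 0.001274). The ear difference from control was 0.22 ± 0.18 (adjusted p = 0.4023).

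Klk1, tissue kallikrein, is a secreted serine protease made in quantity by pancreas, kidney and salivary gland and also by plasmacytoid dendritic cells (chromosome 7, 43874725 to 43879048, GRCm39). The controls held 4.86, 6.40 and 9.48 CPM, and the IL-23-ear libraries 7.75, 11.4 and 7.60 CPM. The imiquimod-dorsal libraries 2, 3 and 5 held 0.51, 0.19 and 0.38 CPM, and imiquimod-dorsal 4, the library with pancreas RNA, held 4.98 CPM. The imiquimod-ear libraries held 3.94, 4.71, 4.54 and 3.50 CPM, all below the lowest control. With all libraries, Klk1 fell after dorsal imiquimod by 2.20 ± 0.77 (adjusted p = 0.02629). Without imiquimod-dorsal 4 it fell by 4.23 ± 0.35 (adjusted p = 4.517e-06), the largest difference of the 8 members in this comparison. With imiquimod-dorsal 4 kept, the call was lost without control 5 (-1.95, adjusted p = 0.07734), without imiquimod-dorsal 2 (-1.90, 0.06294), without imiquimod-dorsal 5 (-1.88, 0.05841) and when the fit held only these groups (-2.24, 0.1029). The ear difference of -0.73 ± 0.73 did not pass (adjusted p = 0.5049). Against the dorsal group, the ear group was higher by 1.47 ± 0.73 (adjusted p = 0.1165), or by 3.50 without imiquimod-dorsal 4 (adjusted p = 1.813e-05). In that library all 15 pancreas genes had counts, among them Ctrb1 at 94.8 CPM, while 2 to 14 of the 15 had any count in the others. Near-identical kallikrein genes could share reads with Klk1. Of 13 Klk1b genes in the table, Klk1b27, named after its values were seen, was at 1.01, 1.09 and 1.94 CPM in the controls and at 0.34, 0.13, 0 and 0.095 CPM in the imiquimod-dorsal libraries, with its 0 in imiquimod-dorsal 4. No other Klk1b gene had more than 5 counts in a library.

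Cox6a2, the striated muscle form of a cytochrome c oxidase subunit, which plasmacytoid dendritic cells also express, lies on chromosome 7 at 127804607 to 127805559 (GRCm39). It was at 2.78, 1.82 and 3.00 CPM in the controls, at 2.21, 1.67, 1.56 and 1.65 CPM in the imiquimod-dorsal libraries and at 2.74, 3.11 and 2.56 CPM in the IL-23-ear libraries. The imiquimod-ear libraries held 2.09, 2.16, 5.27 and 2.77 CPM. The highest value was in imiquimod-ear 4, the library with muscle RNA, where Myh4 stood at 424 CPM and Acta1 at 220 CPM. Cox6a2 did not pass against control, at -0.52 ± 0.31 in the dorsal (adjusted p = 0.1612) and 0.27 ± 0.30 in the ear group (adjusted p = 0.5539). The ear group was higher than the dorsal group by 0.79 ± 0.29 (adjusted p = 0.03524), a call that was lost without imiquimod-ear 4 (0.40, adjusted p = 0.1608). It was also lost without imiquimod-dorsal 3 (0.76, adjusted p = 0.07574), imiquimod-dorsal 4 (0.73, 0.0821) or imiquimod-dorsal 5 (0.75, 0.07538), and it passed in 10 of 18 alternatives in all. Without imiquimod-ear 4 the ear difference from control turned to -0.12 (adjusted p = 0.7665). Cox6a2, with 684 bases of merged exon, shares 70 exon bases with Itgad on the opposite strand.

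**Figure D2:**
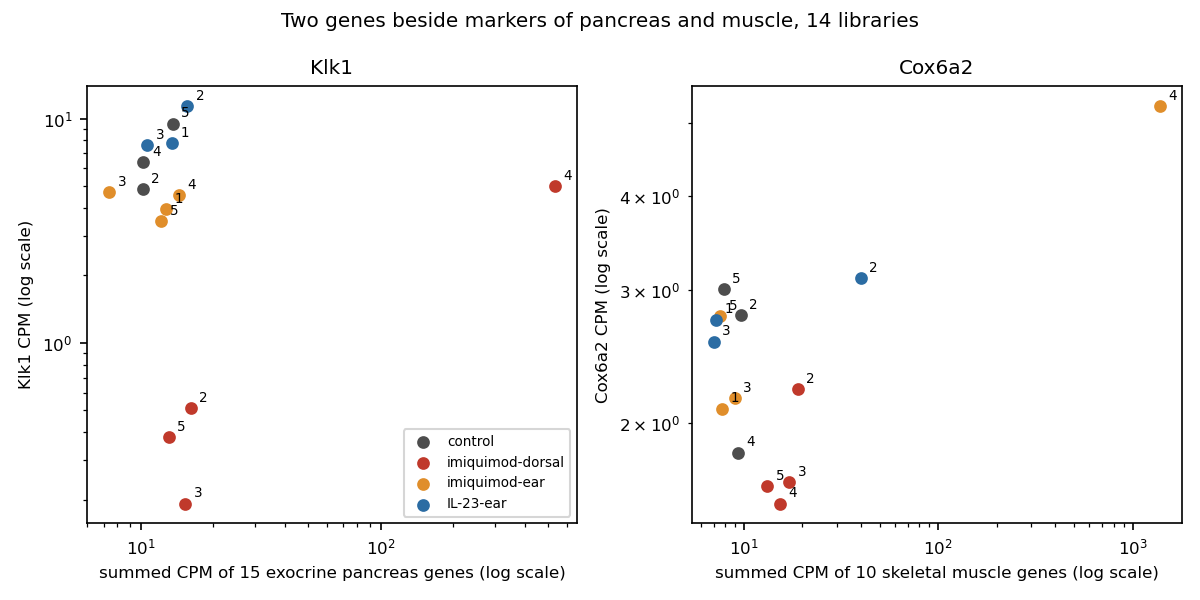
Klk1 against the summed CPM of 15 exocrine pancreas genes (left) and Cox6a2 against that of 10 skeletal muscle genes (right), log scales, 1 point per library with its replicate number. Imiquimod-dorsal 4 at 533 CPM of pancreas genes holds 4.98 CPM of Klk1, where the other 3 imiquimod-dorsal libraries hold 0.19 to 0.51; imiquimod-ear 4 at 1379 CPM of muscle genes holds the highest Cox6a2, 5.27 CPM.

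Counted together, 7 of the 8 tested members were called in imiquimod-dorsal against control. A total of 6 fell (Siglech, Ccr9, Tcf4, Pacsin1, Runx2 and Klk1), where 27.6% of all tested genes fell, and 1 rose (Ly6d), where 32.3% of all genes rose. Their median was -0.56, against -0.00 over all 15159 genes. The count depends on the scaling. Scaled so that B cell genes stay level, which moves the median of all genes to 0.27, 1 member rose and 3 fell (Siglech, Ccr9 and Klk1). Tcf4 then differed by -0.06 (adjusted p = 0.6368), Pacsin1 by -0.35 (0.05734) and Runx2 by -0.23 (0.3142). Scaled by total counts alone, which moves that median to -0.33, 7 fell, since Cox6a2 was then called at -0.85 (adjusted p = 0.0231). Erythroid genes take part of these libraries: 12 of 12 rose after dorsal imiquimod, with a median of 3.38, and they summed to 81784 to 137366 CPM there against 11889 to 38712 CPM in the controls. Their part in the falls was not tested.

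In imiquimod-ear against control, 1 of the 8 members fell (Siglech), where 6.98% of all tested genes fell, and 0 rose, where 14.3% of all genes rose. By edgeR, DESeq2 and limma-voom alike, this was the one member called, and it was also the one member with an unadjusted p under 0.05 in edgeR. Runx2 and Klk1 were lower in every ear library than in every control without passing the test. The median of the 8 was -0.24, against 0.02 over all genes. Scaled to the B cell genes, which moves that median to 0.20, Tcf4 was also called, as higher by 0.34 (adjusted p = 0.03039), and the split became 1 higher and 1 lower. With imiquimod-dorsal 4 and imiquimod-ear 4 left out together, which was chosen after seeing the data, Siglech was again the 1 member called. Plasma cell genes rose in the ear group, 10 of 10 with a median of 1.56 and a sum of 3736 to 5926 CPM against 1543 to 1787 CPM in the controls; their part in these values was not tested.

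In IL-23-ear against control, 0 of the 8 members passed edgeR's test in either direction, where 0.0462% of all genes rose and 0.00660% fell. No member had an unadjusted p under 0.05, DESeq2 and limma-voom also called 0, and the adjusted p lay between 0.7971 and 0.9962. The differences ran from -0.16 ± 0.18 for Siglech to 0.37 ± 0.78 for Klk1.

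**Figure D3:**
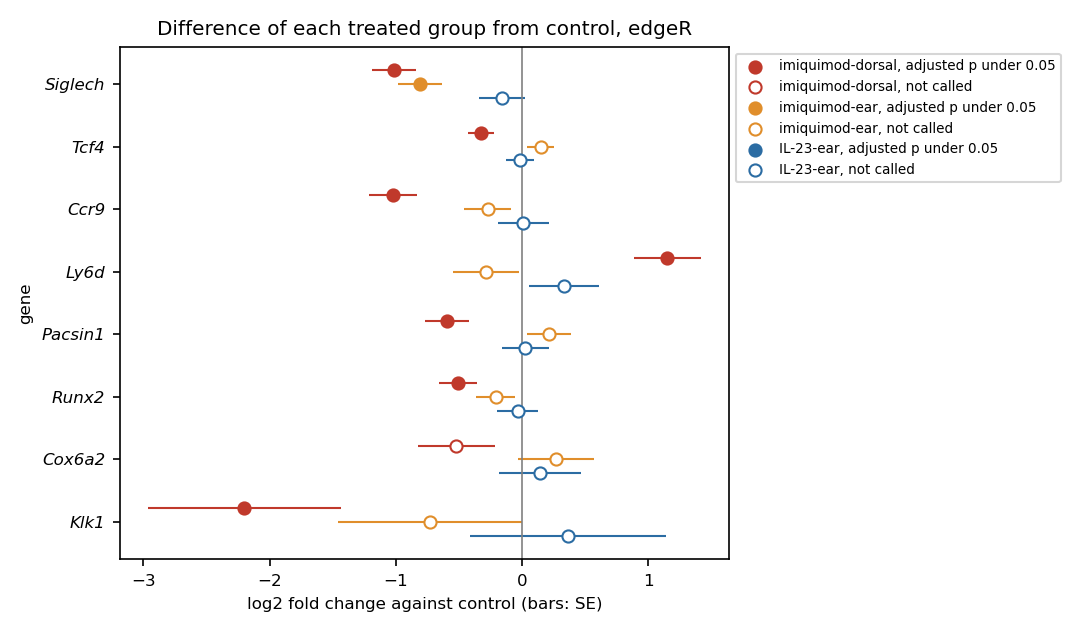
Log2 fold change of the 8 tested members in each treated group against the same 3 control libraries, with bars of 1 SE; filled points passed edgeR's test (adjusted p under 0.05). The dorsal points of 6 genes are filled left of 0 and that of Ly6d right of it, Siglech is the one filled ear point at -0.81, and no IL-23-ear point is filled.

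Direct tests between the treatments showed where the models differed, although they share their libraries with the comparisons above and with each other. In imiquimod-ear against imiquimod-dorsal, 4 members were higher (Tcf4, Ccr9, Pacsin1 and Cox6a2), where 23.3% of all genes were, and 1 was lower (Ly6d), where 24.5% were. Siglech, Runx2 and Klk1 did not pass. In IL-23-ear against imiquimod-ear, 1 member was higher, where 7.06% of all genes were, and 0 were lower, where 10.2% were. This was Siglech, by 0.65 ± 0.17 (adjusted p = 0.02226), and all 3 IL-23-ear libraries were above all 4 imiquimod-ear libraries. The call was lost without IL-23-ear 1 (0.68, adjusted p = 0.05517) and without IL-23-ear 2 (0.58, 0.07448). It was also lost when the fit held only these groups (0.67, adjusted p = 0.06009) and with imiquimod-dorsal 4 and imiquimod-ear 4 left out (0.66, 0.0588), where Klk1 was the 1 member called (1.14, 0.02994). In IL-23-ear against imiquimod-dorsal, 6 members were higher, where 27.1% of all genes were, and 1 was lower (Ly6d), where 30.0% were. The 6 were Klk1 at 2.56 ± 0.77 (adjusted p = 0.0128), Ccr9 at 1.04 ± 0.19 (0.0003466), Siglech at 0.86 ± 0.17 (0.0007933), Pacsin1 at 0.62 ± 0.18 (0.00792), Runx2 at 0.47 ± 0.15 (0.01599) and Tcf4 at 0.31 ± 0.11 (0.02152). Without imiquimod-dorsal 4, Klk1 was higher by 4.60 ± 0.35 (adjusted p = 2.362e-06), and with only these groups in the fit it did not pass (2.60, 0.08199). Ly6d differed by -0.82 ± 0.26 (adjusted p = 0.01804), a call that was lost without IL-23-ear 1 (-0.65, 0.09542) and with only these groups in the fit (-0.79, 0.085). Scaled by total counts alone, where Ly6d was at -0.56 (0.09623), 7 members were higher and 0 lower. Scaled to the B cell genes, Tcf4 was at 0.085 (adjusted p = 0.5199) and Runx2 at 0.24 (0.2925), and neither passed. The call on Tcf4 was also lost without imiquimod-dorsal 3 (0.24, adjusted p = 0.06065) or IL-23-ear 2 (0.25, 0.0717). That on Runx2 was also lost without IL-23-ear 3 (0.42, 0.05577) and with imiquimod-dorsal 4 and imiquimod-ear 4 left out (0.43, 0.05516).

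The members did not move as 1 block. Over the 14 libraries, the correlations of their log2 levels ran from -0.584 (Tcf4 and Ly6d) to 0.895 (Tcf4 and Pacsin1), with a median of 0.465 over the 28 pairs. Siglech correlated with Ccr9 at 0.748 and with Tcf4 at 0.325. These points share the group differences. After each group's mean was taken out, the range was -0.336 to 0.687. Tcf4 and Pacsin1 still stood at 0.681, Siglech and Ly6d were the highest pair, and 3 of the 7 pairs with Runx2 were above 0. Imiquimod-dorsal 3 was the lowest of all 14 libraries for 5 of the 8 tested members. The share of all tested genes that were lowest there was not counted. Its summed B cell genes were also the lowest of the 14 libraries, at 4354 CPM, and its erythroid genes the highest, at 137366 CPM. T cell genes were lowest in imiquimod-dorsal 4, at 195 CPM. The genes most like Siglech over the 14 libraries, among 12012 genes whose log2 CPM averaged 1 or more, were Arhgap5 (r = 0.9645), Yju2b (0.9615), Nedd9 (0.9614), Herc3 (0.961), Ids (0.9572) and Icosl (0.9568). With group means taken out they were Kif13b (0.921), Ctss (0.9178), Il2rg (0.9115), Cfp (0.9066), Tlr2 (0.8992) and Fam120b (0.8992), with no gene on both lists. For the mean z-score of the 8 members, the most alike were Relb (0.9866), Marcksl1 (0.9778), Fscn1 (0.9753), Mpnd (0.9741), Septin6 (0.9687) and Ccnd1 (0.9633), of which Relb (0.9303) and Mpnd (0.9211) were again among the 6 highest with group means taken out.

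Of 18 further genes used to mark plasmacytoid dendritic cells or their regulators, 4 rose and 5 fell after dorsal imiquimod, with a median of -0.06, where 32.3% of all tested genes rose and 27.6% fell. After ear imiquimod 1 rose and 3 fell, with a median of -0.01, where 14.3% of all genes rose and 6.98% fell. The risers after dorsal imiquimod, named because they were called, were Klra17 at 1.25 ± 0.26, Zeb2 at 0.69 ± 0.14, Bcl11a at 0.67 ± 0.10 and Pld4 at 0.58 ± 0.11. Beside Bst2 and Tlr7, given below, genes with lower means after dorsal imiquimod included Ptprs, Nucb2 and Rpgrip1. Ptprs averaged 37.7 CPM in the controls and 25.5 CPM after dorsal imiquimod, Nucb2 33.1 and 21.2 CPM, and Rpgrip1 8.88 and 5.45 CPM. By edgeR, 0 of the 18 passed in IL-23-ear against control, where 0.0462% of all genes rose and 0.00660% fell. Bst2, an interferon-induced surface protein that serves as a marker of these cells, was at 135 to 277 CPM in the controls, 29.8 to 46.5 CPM after dorsal and 87.9 to 114 CPM after ear imiquimod. It fell by 2.48 ± 0.26 (adjusted p = 6.384e-06) and by 1.08 ± 0.25 (0.0108). Irf8, the transcription factor that dendritic cells of both kinds need, and Spib, a partner factor of B cells and plasmacytoid dendritic cells, did not pass in either group. Irf8 differed by 0.12 ± 0.17 after dorsal imiquimod (adjusted p = 0.59) and Spib by -0.02 ± 0.08 (0.86).

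Along the pathway from the imiquimod receptor to interferon, 7 of 14 genes fell after dorsal imiquimod and 2 of 14 after ear imiquimod, while 0 rose in either. Of all tested genes, 27.6% fell and 32.3% rose after dorsal imiquimod, and 6.98% fell and 14.3% rose after ear imiquimod. The 2 that fell after ear imiquimod were Tlr7, the receptor itself, and Irf7, the factor that drives interferon alpha genes. Tlr7 was at 62.8, 108 and 96.3 CPM in the controls. It held 26.7, 31.3, 28.1 and 28.6 CPM in the imiquimod-dorsal and 61.3, 48.8, 44.2 and 56.0 CPM in the imiquimod-ear libraries, and 81.6, 118 and 108 CPM in the IL-23-ear libraries. All 8 imiquimod libraries were below all 6 others. Tlr7 fell by 1.63 ± 0.17 (adjusted p = 5.49e-06) and 0.76 ± 0.17 (0.008883), and the ear group was higher than the dorsal group by 0.87 ± 0.16 (adjusted p = 0.00073). Irf7 fell by 4.19 ± 0.40 (adjusted p = 4.747e-06) and by 1.94 ± 0.37 (0.005399). Tlr9, the receptor for DNA in the same endosomes, did not pass, at 0.15 ± 0.19 (adjusted p = 0.51) after dorsal and -0.21 ± 0.19 (0.46) after ear imiquimod. The interferon genes were almost silent in these spleens. None of 18 type I interferon genes had enough counts to be tested, and together they had 1 to 11 counts in a library, or 0.026 to 0.31 CPM. Of 15 tested genes of conventional dendritic cells, the antigen-presenting relatives, 12 fell and 2 rose after dorsal imiquimod, with a median of -0.93. Of all tested genes, 27.6% fell and 32.3% rose there. After ear imiquimod 2 of the 15 fell, where 6.98% of all genes did. Cd8a, 1 of the 15 and also a T cell gene, fell by 3.02 ± 0.26 after dorsal imiquimod (adjusted p = 1.837e-06), and Snx22 rose by 2.64 ± 0.25 (3.672e-06).

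**Figure D4:**
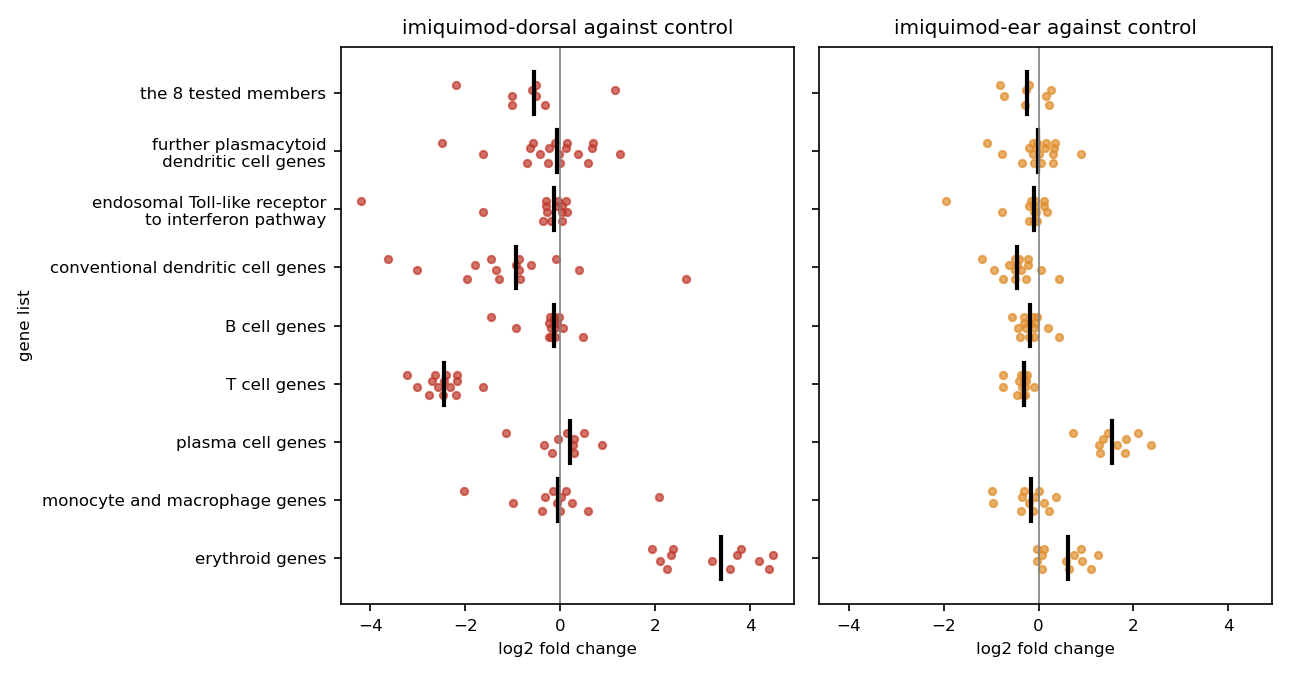
Log2 fold changes against control of the 8 tested members and of genes of related pathways and cell types, 1 point per gene, with the median of each list as a bar; imiquimod-dorsal left, imiquimod-ear right. The members' medians are -0.56 and -0.24, conventional dendritic cell genes lie at -0.93 after dorsal imiquimod, T cell genes at -2.46 and erythroid genes at 3.38.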

How the data were processed

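The deposited table gives raw counts of reads for each gene in each library, judged by its whole numbers. The build GRCm39 and the tools DESeq2 1.38.3, featureCounts 2.0.3 (Subread), HISAT2 2.2.1, fastp 0.23.2 and StringTie 2.2.1 are named, without roles, per the submitters' processing notes. Reads were paired, 150 bases long and non-stranded, per the labels' protocols. For the annotation used in counting and the treatment of reads with several matches, nothing was given in the sources used here. Among 22740 entries, 624 assembled loci without a gene name (0.484% to 0.674% of counts) stayed out of library sizes and tests. Among counts of 1 to 10, 58.2% to 60.9% were even, against 49.4% to 50.4% among higher counts, so low counts may not each be 1 fragment. Replicates differed by more than sampling noise (chi-square per degree of freedom 23.1 to 135.5) and none was merged. The labels call them biological replicates of 1 batch.

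All 14 libraries entered 1 robust quasi-likelihood fit with edgeR 4.0.16 in R 4.3.3 (TMM scaling, filterByExpr with a minimum count of 10, 10 residual degrees of freedom, common biological coefficient of variation 18.7%). P-values were adjusted after Benjamini and Hochberg over 15159 genes, with a threshold of 0.05, in each of 6 comparisons, which share libraries. Where no other tool is named, an adjusted p comes from edgeR. The fit was tested on simulated data. Alternatives were DESeq2 1.42.0, limma-voom (limma 3.58.1), RLE size factors, total counts, scaling to 14 B cell genes, no filter, haemoglobin and immunoglobulin genes taken out, the replicate number as a block, 2-group fits, each library left out and, chosen after seeing the data, imiquimod-dorsal 4 and imiquimod-ear 4 left out together. The floor of 3 counts covers counting error alone, because without molecular identifiers a read is not an independent molecule. Gene positions are from GENCODE mouse release 39.

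The members, the gene lists and the alternatives were chosen with earlier results of these data known. The rule for named genes took all 9 members whatever their result, Tlr7, Tlr9, Irf7, Irf8, Bst2 and Spib likewise, the 2 genes of each other list with the smallest adjusted p in imiquimod-dorsal against control, and the 6 genes most like Siglech or the members' mean by Pearson correlation. Lists shared Spib, Tlr7, Tlr9 and Cd8a, and the spleen list shared Cr2, Cd79a, Cd3e and Spic with others. Not all of these genes are printed.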

Additional observations from a re-analysis of the deposited data

Results flagged for a closer look

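Among the 2 groups of 4 libraries, some members had 1 library whose gap to the next, divided by the range of the group, was above the critical value of Dixon's test; chance alone gives about 1 such group in 20. Ccr9 was 15.06 CPM in imiquimod-ear 5 (gap 0.873 of the range), above the other 3 libraries of its group and within the range of the controls. Klk1 was 4.98 CPM in imiquimod-dorsal 4 (0.933), the library with pancreas RNA. Cox6a2 was 2.21 CPM in imiquimod-dorsal 2 (0.841). Cd300c was 0.199 CPM in imiquimod-dorsal 2 (1), the only library of that group with any Cd300c count. Because the others were all at 0, its gap equals the range whatever its size. Neither the critical value nor the rate of 1 in 20 applies to it.

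A direct test found 5 members to differ between the application sites of imiquimod. Of all tested genes, 23.3% were higher and 24.5% lower in the ear than in the dorsal group. As imiquimod-ear minus imiquimod-dorsal on the log2 scale, the 5 members were Tcf4 at 0.47, Ccr9 at 0.75, Pacsin1 at 0.81, Cox6a2 at 0.79 and Ly6d at -1.44. The libraries of the 2 groups did not overlap for Tcf4, Ccr9, Pacsin1 and Ly6d, but the share of all tested genes without such overlap was not counted. The call on Cox6a2 was lost without imiquimod-ear 4, the library with muscle RNA, at 0.40 (edgeR adjusted p = 0.1608), and also without each of imiquimod-dorsal 3, 4 and 5.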

How the results depend on the processing

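Over 48 differences (8 members in 6 comparisons), alternatives other than leaving out a library gave 480 values: 435 kept direction and call, 20 lost the call, 14 gained it and 11 changed sign. Leaving out 1 library gave 336: 306, 13, 3 and 14. No difference that passed edgeR's test changed sign under these. Members called in imiquimod-dorsal against control were 7, 4 when scaled to B cell genes, 6 with only the groups compared (Klk1 lost) and 6 to 7 without 1 library. In imiquimod-ear against control they were 1, 2 when scaled to B cell genes. In imiquimod-ear against imiquimod-dorsal they were 5, and 4 to 6 without 1 library; Cox6a2 also missed the threshold with limma-voom (0.68, adjusted p = 0.07749), scaling to B cell genes (0.70, 0.06652), only the groups compared (0.81, 0.06634) and the 2 libraries with pancreas or muscle RNA left out (0.34, 0.2787). In IL-23-ear against imiquimod-ear they were 1, 2 with DESeq2, limma-voom or only the groups compared, and 0 to 1 without 1 library. With only the groups compared, Siglech was not among the 2. Over the 17 alternatives of this comparison, Siglech was called in 13, Ly6d in 3 and Klk1 in 3, and no other member in any. In IL-23-ear against imiquimod-dorsal they were 7, 5 when scaled to B cell genes (Tcf4 and Runx2 lost), 6 with only the groups compared, 6 with those 2 libraries left out and 6 to 7 without 1 library. Over all genes, 3219 passed in imiquimod-ear against control, 311 with the replicate block, 1046 with only the groups compared, 2018 with those 2 libraries left out and 1066 to 4977 without 1 library; 8 passed in IL-23-ear against control, 0 to 134 otherwise; and 2623 passed in IL-23-ear against imiquimod-ear, 1261 with the block, 1207 with only the groups compared, 1507 with those 2 libraries left out and 1101 to 4463 without 1. The causes were not tested.

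Same-numbered libraries did not deviate together (correlations -0.241 to 0.183), so the numbers are not known to pair mice. With the replicate number as a block, 4 members passed in IL-23-ear against imiquimod-dorsal (Tcf4, Runx2 and Ly6d lost), 6 in imiquimod-dorsal against control (Tcf4 lost, adjusted p = 0.05966) and 2 in IL-23-ear against imiquimod-ear; Siglech in IL-23-ear against control became 0.021 and Tcf4 0.0092.

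The sign changes were in differences that did not pass. With those 2 libraries left out, Cox6a2 was -0.12 in imiquimod-ear against control and 0.26 in IL-23-ear against imiquimod-ear. In IL-23-ear against control, scaling to B cell genes gave Tcf4 0.022 and Runx2 0.012, total counts gave Ccr9 -0.048 and Pacsin1 -0.032, and Ccr9 was -0.0056 with limma-voom, -0.0012 with no filter and -0.0086 with only the groups compared. Without 1 library at a time, the ranges in IL-23-ear against control were -0.13 to 0.043 for Tcf4, -0.19 to 0.12 for Ccr9, -0.052 to 0.10 for Pacsin1, -0.14 to 0.068 for Runx2 and -0.060 to 0.27 for Cox6a2. Cox6a2 ranged from -0.12 to 0.39 in imiquimod-ear against control and from -0.26 to 0.26 in IL-23-ear against imiquimod-ear. Depth limits Cd300c: at 0 to 10 counts per library no change was detectable.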
